A study of Mus musculus with 42 samples.

Results

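The amyloid precursor protein gene App, its 2 relatives Aplp1 and Aplp2, and 6 genes whose products cut the proteins they encode were followed in mouse cells and tissue of 3 genotypes. The 9 genes were chosen by name: App, Aplp1, Aplp2, the beta-secretase genes Bace1 and Bace2, the gamma-secretase subunit genes Psen2, Ncstn and Aph1a, and the alpha-secretase gene Adam10. All 9 were found by symbol among 52636 gene lines of the count files, and all 9 were among the 17173 genes abundant enough to test. The lowest count of any of them in any library was 507, for Aph1a.

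The study removed the surplus of Brwd1, a bromodomain gene of which Ts65Dn mice have an extra copy, and asked what this does to their brain. Euploid mice had the normal chromosomes, Ts65Dn mice carried an additional segment in which distal chromosome 16 is joined to proximal chromosome 17, and the third genotype, named Ts65Dn;Brwd1+/- in the titles and Brwd1 Rescue in the genotype field, was a Ts65Dn mouse with 1 Brwd1 allele carrying the repro5 mutation. All came from a mixed background of DBA/2J and B6EiC3Sn/J. RNA was sequenced from forebrain neuronal cultures of embryonic day 16, changed after plating to serum-free medium with cytosine arabinoside against dividing glia, in 3 libraries per genotype. The cells were collected after days in culture, by the methods, so embryonic day 16 is the age at dissection. SMARCA2/4, the alternative ATPases of the BAF chromatin remodelling complex, were mapped by chromatin immunoprecipitation (ChIP-seq) in the hippocampus of males 6 to 8 weeks old, with 2 animals pooled per library and 4 immunoprecipitated and 4 input libraries per genotype. Open chromatin was mapped by ATAC-seq in NeuN-positive hippocampal nuclei of adult males, with 3 libraries per genotype. By the methods, cortices were dissociated embryo by embryo and molecular samples stayed separate, whereas the labels call the cultures pooled, so the p-values measure the spread between these libraries.

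APP is a membrane protein that neurons and many other cells make. An alpha-secretase such as ADAM10 cuts it within the amyloid-beta sequence, whereas the beta-secretase BACE1 cuts it at the start of that sequence, and the gamma-secretase complex of a presenilin, nicastrin, APH1 and PEN-2 then cuts the remaining stub inside the membrane. An extra copy of App is present in Down syndrome and in Ts65Dn mice, and people with Down syndrome commonly develop Alzheimer disease.

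Several facts of the RNA libraries bear on every value that follows. The sum of 12 neuronal markers lay between 4216 and 5219 CPM (counts relative to the library total, scaled by the TMM method) in the euploid libraries. It was 1073 to 2710 CPM for Ts65Dn and 4343 to 5444 CPM for Brwd1 Rescue, and 10 of the 12 markers fell in Ts65Dn against euploid, where 25.6% of all tested genes were higher and 21.1% lower. Ts65Dn replicate 3 was the library with 1073 CPM. The 8 markers of radial glia and progenitors summed to 3340 to 3954, 6220 to 8060 and 2669 to 3087 CPM in the same order, but Vim made up most of this, and without it the sums were 926 to 1034, 1259 to 1436 and 1379 to 1399 CPM. In Ts65Dn against euploid 6 of the 8 rose and Hes5 fell. Markers of fibroblasts and meninges summed to 319 to 413, 746 to 1264 and 202 to 246 CPM (52.4 to 69.1, 183 to 267 and 37.3 to 46.2 without Fn1), with 4 of 7 higher in Ts65Dn and Col3a1, Dcn and Lum lower. In these bulk cultures, fewer cells of a type and less RNA per cell cannot be told apart. Brwd1 itself had 89.4 ± 3.66 CPM in euploid, 127 ± 2.13 in Ts65Dn and 139 ± 12.3 in Brwd1 Rescue (SD, n = 3 each), so its RNA was not lower under the third label, and those libraries are named here by that label alone. The paper reports a rescued Brwd1 level for this genotype by qPCR in embryonic forebrain, which is another measure and another material than these counts. Although the labels describe pooled male and female cultures, 4 Y-linked genes summed to 194 to 223 CPM for euploid, 207 to 216 for Ts65Dn and 0.0557 to 0.149 for Brwd1 Rescue, while Xist averaged 0.775, 0.931 and 1779 CPM. Sex and genotype therefore cannot be told apart in any comparison with the Brwd1 Rescue libraries.

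App lies on the triplicated part of chromosome 16, at chr16:84949685-85173766 on the minus strand of mm10, while Aplp1 lies at chr7:30434982-30445535 and Aplp2 at chr9:31149557-31211815, both on the minus strand and outside the extra segment. The 250 bases before the RefSeq start (GRCm38.p6, the mm10 assembly) are shown for these 3 relatives because the culture data separate them, and 7 of the 9 genes had an entry in that promoter set. The sequences run 5′ to 3′ on the strand of the gene and capitals mark the GC box GGGCGG, searched on both strands.
App promoter, chr16:85173708-85173957: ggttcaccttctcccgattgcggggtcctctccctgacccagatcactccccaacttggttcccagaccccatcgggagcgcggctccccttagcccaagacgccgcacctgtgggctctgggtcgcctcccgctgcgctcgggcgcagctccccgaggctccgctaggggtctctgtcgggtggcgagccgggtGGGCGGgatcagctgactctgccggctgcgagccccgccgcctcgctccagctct
Aplp1 promoter, chr7:30445583-30445832: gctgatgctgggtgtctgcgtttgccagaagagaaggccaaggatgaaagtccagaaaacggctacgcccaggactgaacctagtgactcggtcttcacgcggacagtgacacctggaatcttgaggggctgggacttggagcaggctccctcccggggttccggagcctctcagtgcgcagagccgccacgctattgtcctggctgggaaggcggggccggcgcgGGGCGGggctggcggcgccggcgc
Aplp2 promoter, chr9:31211849-31212098: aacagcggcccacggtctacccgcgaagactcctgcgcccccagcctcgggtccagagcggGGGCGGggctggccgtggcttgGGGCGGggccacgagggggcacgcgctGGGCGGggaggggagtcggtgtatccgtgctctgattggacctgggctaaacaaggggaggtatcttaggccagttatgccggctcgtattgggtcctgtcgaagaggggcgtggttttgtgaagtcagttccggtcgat

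The App window was 70.8% G and C with 23 CpG dinucleotides, the Aplp1 window 66% with 20, and the Aplp2 window 66.4% with 22. Among 32851 promoter windows of the same length the medians were 52.4% and 6 CpG, and 86.7, 82.1 and 85.2% of the windows had fewer CpG than those of App, Aplp1 and Aplp2. App and Aplp1 had 1 GC box each and Aplp2 had 3, a motif present in 32.7% of all windows. The letters TATAAA, found in 12.4% of all windows, were in none of the windows of the 7 matched genes.

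Per kilobase (kb) of exon, the 3 relatives were the most abundant of the 9 genes, and in euploid cultures they stood close together. Aplp1, the relative made mostly by neurons, had 236 ± 30.6 CPM per kb, Aplp2, which most tissues make, had 201 ± 1.41 and App had 193 ± 17.1 (SD, n = 3), where the Aplp1 libraries lay just above those of Aplp2 and the App libraries overlapped both. In Ts65Dn the order was App with 307 ± 20.6, Aplp2 with 208 ± 3.25 and Aplp1 with 115 ± 43.5, with no overlap between the libraries of the 3 genes. In Brwd1 Rescue App had 225 ± 21.0, Aplp1 222 ± 45.8 and Aplp2 160.3 ± 8.30 on the same scale, and the App and Aplp1 libraries overlapped while those of Aplp2 were lower. In euploid the other 6 genes followed with 48.6 ± 1.72 for Ncstn, 33.2 ± 3.16 for Adam10, 26.1 ± 1.30 for Bace2, 19.8 ± 1.61 for Bace1, 9.85 ± 0.531 for Psen2 and 7.95 ± 0.505 for Aph1a, with no overlap between neighbours in this order.

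App had 2447, 2758 and 2328 CPM in the euploid libraries, 3848, 4296 and 3819 in Ts65Dn, and 3235, 2773 and 2753 in Brwd1 Rescue. Every Ts65Dn library stood above all others, and the Brwd1 Rescue libraries reached from just under the highest euploid library to well above it. App rose in Ts65Dn against euploid by 0.67 ± 0.11 on the log2 scale (SE), a 1.59-fold difference with a 95% interval of 1.34 to 1.89 (edgeR's quasi-likelihood test, Benjamini-Hochberg adjusted p = 0.00115). The ratio of gene copies, 1.5, lay inside that interval. In Brwd1 Rescue App fell against Ts65Dn by 0.45 ± 0.11 (adjusted p = 0.00597), and its 1.16-fold level against euploid did not pass the test (interval 0.980 to 1.38, adjusted p = 0.174), with the copy ratio above the interval.

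Aplp1 moved the other way. It had 732, 794 and 612 CPM in the euploid libraries, 453, 387 and 199.8 in Ts65Dn, and 830.0, 588 and 593 in Brwd1 Rescue. All 3 Ts65Dn libraries were below the other 6, and replicate 3 was lowest. Aplp1 fell in Ts65Dn by 1.04 ± 0.26 on the log2 scale (adjusted p = 0.00938), rose in Brwd1 Rescue against Ts65Dn by 0.95 ± 0.26 (adjusted p = 0.0106) and had a log2 difference of -0.09 ± 0.26 to euploid (adjusted p = 0.839). Without Ts65Dn replicate 3 the first 2 differences were -0.76 and 0.67, and both still passed.

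The neuronal markers moved with Aplp1. Per 100 CPM of the 12 summed neuronal markers there were 14.03, 16.3 and 14.5 CPM of Aplp1 in euploid, 16.7, 16.2 and 18.6 in Ts65Dn, and 15.2, 13.5 and 13.5 in Brwd1 Rescue, so relative to these markers Aplp1 was not lower in Ts65Dn, and the highest value was that of the replicate with the fewest markers. The plot of Aplp1 and App against these markers shows App on another course, highest in the 3 libraries where the markers were lowest. The part of the neuronal share in either difference was not tested.

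**Figure D1:**
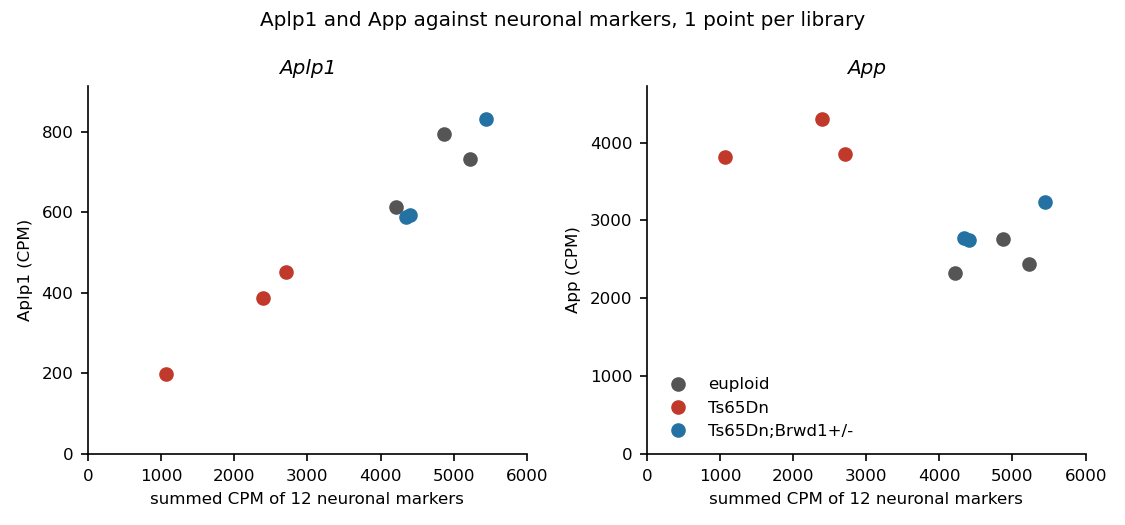
Aplp1 (left) and App (right) in CPM against the summed CPM of 12 neuronal markers, 1 point per RNA library, coloured by genotype. The Ts65Dn libraries lie between 1073 and 2710 CPM of markers, with Aplp1 between 199.8 and 453 CPM and App between 3819 and 4296 CPM.

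Aplp2 had 1184, 1182 and 1169 CPM in the euploid libraries, 1232, 1238 and 1202 in Ts65Dn, and 995, 899.8 and 929.8 in Brwd1 Rescue. The euploid and Ts65Dn libraries did not overlap but lay within a narrow band, with a log2 difference of 0.05 ± 0.08 (interval -0.12 to 0.23, adjusted p = 0.596), and the Brwd1 Rescue libraries were below both. Aplp2 fell in Brwd1 Rescue by 0.38 ± 0.08 against Ts65Dn (adjusted p = 0.00207) and by 0.32 ± 0.08 against euploid (adjusted p = 0.0109).

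The ratio of 2 counts within a library does not depend on how libraries are scaled. App had 3.34, 3.47 and 3.80 counts per count of Aplp1 in the euploid libraries, 8.50, 11.1 and 19.1 in Ts65Dn, and 3.90, 4.72 and 4.64 in Brwd1 Rescue. The 3 genotypes did not overlap, with log2 differences of 1.78 between Ts65Dn and euploid, -1.47 between Brwd1 Rescue and Ts65Dn and 0.32 between Brwd1 Rescue and euploid (two-sided exact permutation test, p = 0.1 each, the smallest that 3 against 3 libraries allow).

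App had 2.07, 2.33 and 1.99 counts per count of Aplp2 in euploid, 3.12, 3.47 and 3.18 in Ts65Dn, and 3.25, 3.08 and 2.96 in Brwd1 Rescue. Here both trisomic genotypes stood above euploid and overlapped each other. The log2 differences were 0.61 for Ts65Dn and 0.54 for Brwd1 Rescue against euploid (exact permutation p = 0.1 each) and -0.07 between the trisomic genotypes (exact permutation p = 0.4). Relative to Aplp2, then, App was 1.46-fold the euploid level in Brwd1 Rescue, whereas in CPM it was 1.16-fold. Aplp2 itself was lower by 0.32 on the log2 scale in that comparison (edgeR adjusted p = 0.0109), so this ratio does not describe App alone. Over the 9 ratio tests made, none passed after Benjamini-Hochberg adjustment, where the values were 0.129, 0.225 and 0.4.

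Of the beta-secretase genes, Bace1 encodes the main enzyme that starts amyloid-beta formation in neurons. Bace2 encodes its close relative, which cuts APP mainly within the amyloid-beta sequence, and it lies in the extra segment at chr16:97356742-97442936 on the plus strand. Bace1, at chr9:45838580-45864399 on the plus strand, does not.

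Bace2 had 199.6, 201 and 218 CPM in the euploid libraries, 352, 399 and 470.0 in Ts65Dn, and 125, 176 and 168 in Brwd1 Rescue. The 3 genotypes did not overlap, with Ts65Dn highest and Brwd1 Rescue lowest, and the highest library was Ts65Dn replicate 3. Bace2 rose in Ts65Dn by 0.98 ± 0.14 on the log2 scale, 1.97-fold with an interval of 1.59 to 2.45 (adjusted p = 0.000513), which lay above the copy ratio. Without Ts65Dn replicate 3 the log2 difference was 0.87.

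In Brwd1 Rescue, which carries the same extra segment, Bace2 fell by 1.38 ± 0.14 against Ts65Dn (adjusted p = 2.59e-05). It stood at 0.757-fold the euploid level (interval 0.610 to 0.940), a difference of -0.40 ± 0.14 on the log2 scale that missed the threshold (adjusted p = 0.0558) but passed in 9 of 17 alternative analyses. The level expected from 1.5 copies per euploid copy lay above this interval, as it did for App.

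Bace1 had 135, 128 and 115 CPM in the euploid libraries, 106, 117 and 93.2 in Ts65Dn, and 129, 115 and 115 in Brwd1 Rescue. The groups overlapped and no comparison passed, with log2 differences of -0.26 ± 0.10 (adjusted p = 0.0575), 0.19 ± 0.10 (adjusted p = 0.138) and -0.07 ± 0.10 (adjusted p = 0.642) in the order Ts65Dn against euploid, Brwd1 Rescue against Ts65Dn and Brwd1 Rescue against euploid. With the replicate number as a block the first, -0.26, passed (adjusted p = 0.0254). Of its exon bases 32.5% are also exon of Rnf214, Gm16536 or Gm49338, and whether counting used the strand is not stated, so its counts are less certain than those of the other 8 genes.

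Bace2 had 1.48, 1.56 and 1.90 counts per count of Bace1 in euploid, 3.33, 3.40 and 5.04 in Ts65Dn, and 0.964, 1.53 and 1.46 in Brwd1 Rescue. Ts65Dn was above both other genotypes without overlap, by 1.23 over euploid and by 1.58 over Brwd1 Rescue on the log2 scale (exact permutation p = 0.1 each). Brwd1 Rescue and euploid overlapped, with a difference of -0.34 (exact permutation p = 0.2). The plot of count ratios puts these 3 ratios side by side.

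**Figure D2:**
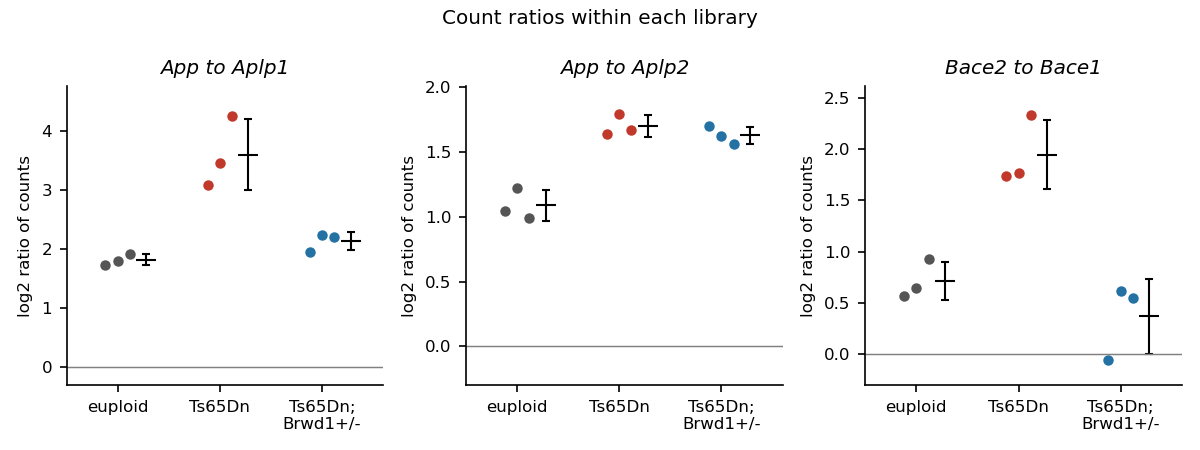
Log2 ratio of the counts of 2 genes within each RNA library (dots), with the mean and SD of the 3 libraries of a genotype beside them. App to Aplp1 and Bace2 to Bace1 were highest in Ts65Dn, whereas App to Aplp2 was similarly high in Ts65Dn (3.12 to 3.47 as a ratio) and Ts65Dn;Brwd1+/- (2.96 to 3.25).

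Among the gamma-secretase subunit genes, Ncstn changed in all 3 comparisons. Ncstn, at chr1:172066013-172082795, encodes nicastrin, the subunit that admits substrates. It had 185, 198 and 197 CPM in the euploid libraries, 262, 277 and 294 in Ts65Dn, and 151, 144 and 149 in Brwd1 Rescue, so that the genotypes did not overlap and kept a spread of a few percent within each.

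Ncstn rose in Ts65Dn by 0.52 ± 0.07 on the log2 scale (adjusted p = 0.000399). It fell in Brwd1 Rescue by 0.91 ± 0.07 against Ts65Dn (adjusted p = 5.69e-06) and by 0.38 ± 0.07 against euploid (adjusted p = 0.00292). It is not in the extra segment, and its level in Ts65Dn was 1.44-fold that in euploid (interval 1.29 to 1.61), beside 1.59-fold for App. Of its exon bases 4.91% are shared with Copa.

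Psen2, at chr1:180227004-180263438, encodes presenilin 2, one of the alternative catalytic subunits. It had 42.9, 44.8 and 40.2 CPM in the euploid libraries, 42.0, 41.0 and 40.7 in Ts65Dn, and 41.4, 36.4 and 38.6 in Brwd1 Rescue. The groups overlapped in every comparison, the log2 difference of Ts65Dn to euploid was -0.05 ± 0.07 (interval -0.21 to 0.11, adjusted p = 0.613), and the other 2 were -0.09 and -0.14 (adjusted p = 0.329 and 0.197).

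Aph1a, at chr3:95893969-95898288, encodes a scaffold subunit of the same complex. It had 25.4, 28.3 and 28.6 CPM in the euploid libraries, 29.4, 31.8 and 33.0 in Ts65Dn, and 27.6, 28.2 and 28.7 in Brwd1 Rescue. The Ts65Dn libraries were above all others by a small margin that missed the threshold, 0.19 ± 0.08 against euploid (adjusted p = 0.0579, or 0.0374 with the replicate number as a block), and Brwd1 Rescue had log2 differences of -0.15 ± 0.08 to Ts65Dn (adjusted p = 0.105) and 0.04 ± 0.08 to euploid (adjusted p = 0.743). Of its exon bases 12.9% are shared with Car14.

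Adam10, at chr9:70678997-70780229, encodes the principal alpha-secretase of neurons. It had 179, 148 and 161 CPM in the euploid libraries, 186, 202 and 206 in Ts65Dn, and 141, 148 and 139 in Brwd1 Rescue. Ts65Dn libraries were highest and Brwd1 Rescue libraries lowest, although the highest of the latter nearly met the lowest euploid one. Adam10 rose in Ts65Dn by 0.28 ± 0.08 on the log2 scale (adjusted p = 0.0201), a call that 8 of 17 alternative analyses lost, and fell in Brwd1 Rescue against Ts65Dn by 0.48 ± 0.08 (adjusted p = 0.000879). Against euploid the Brwd1 Rescue difference was -0.19 ± 0.08 (adjusted p = 0.116).

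**Figure D3:**
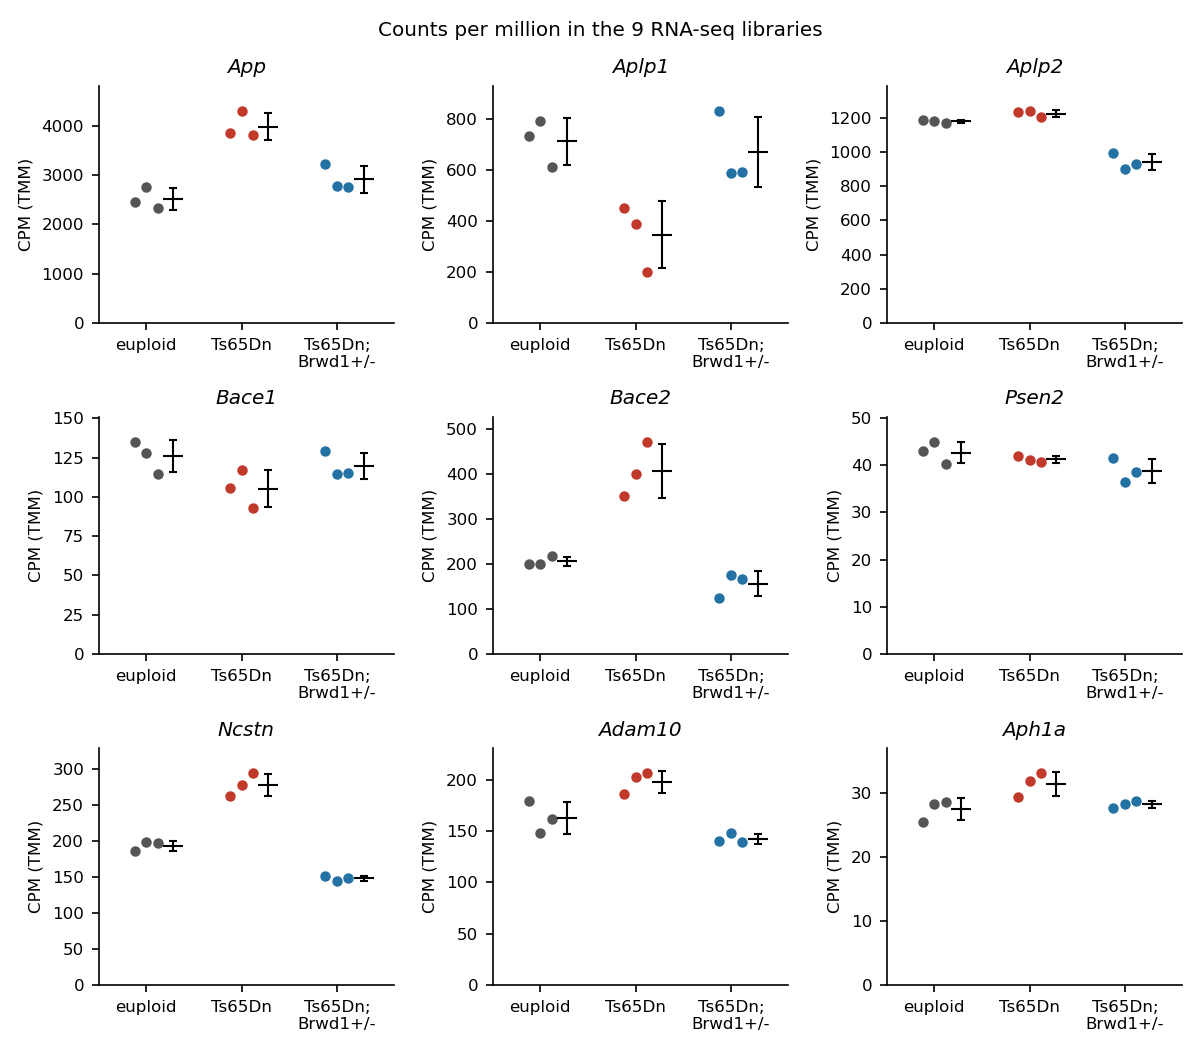
CPM of each of the 9 genes (1 panel per gene, each y axis from 0) in the 9 RNA libraries, shown as dots by genotype, with the mean and SD of 3 libraries beside them. Ncstn and Bace2 show no overlap between genotypes, App is highest in Ts65Dn, Aplp1 is lowest there, and Psen2 stays between 36.4 and 44.8 CPM.

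In Ts65Dn against euploid, 4 of the 9 genes rose (App, Bace2, Ncstn and Adam10), 1 fell (Aplp1) and 4 did not pass, and with the replicate block Aph1a also rose and Bace1 also fell. Among all 17173 genes 46.7% passed in that comparison, 25.6% higher and 21.1% lower, so the share of the 9 was near the background. The libraries of 7 of the 9 genes did not overlap between the genotypes, beside 56.8% of all genes. The median log2 difference was 0.19 over the 9 and 0.04 over all genes.

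In Brwd1 Rescue against Ts65Dn, 1 of the 9 rose (Aplp1), 5 fell (App, Aplp2, Bace2, Ncstn and Adam10) and 3 did not pass, beside 58.1% of all genes (27.6% higher and 30.5% lower). The libraries of 7 did not overlap, beside 68.4% of all genes, and the medians were -0.38 over the 9 and 0.00 over all genes. Against euploid, none of the 9 rose in Brwd1 Rescue and 2 fell (Aplp2 and Ncstn), beside 29.2% of all genes, and 4 did not overlap, beside 45.9%. Without Ts65Dn replicate 3 the numbers that passed were 5, 6 and 3. The first 2 comparisons share the Ts65Dn libraries, and the plot of fitted changes shows each with its own interval.

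**Figure D4:**
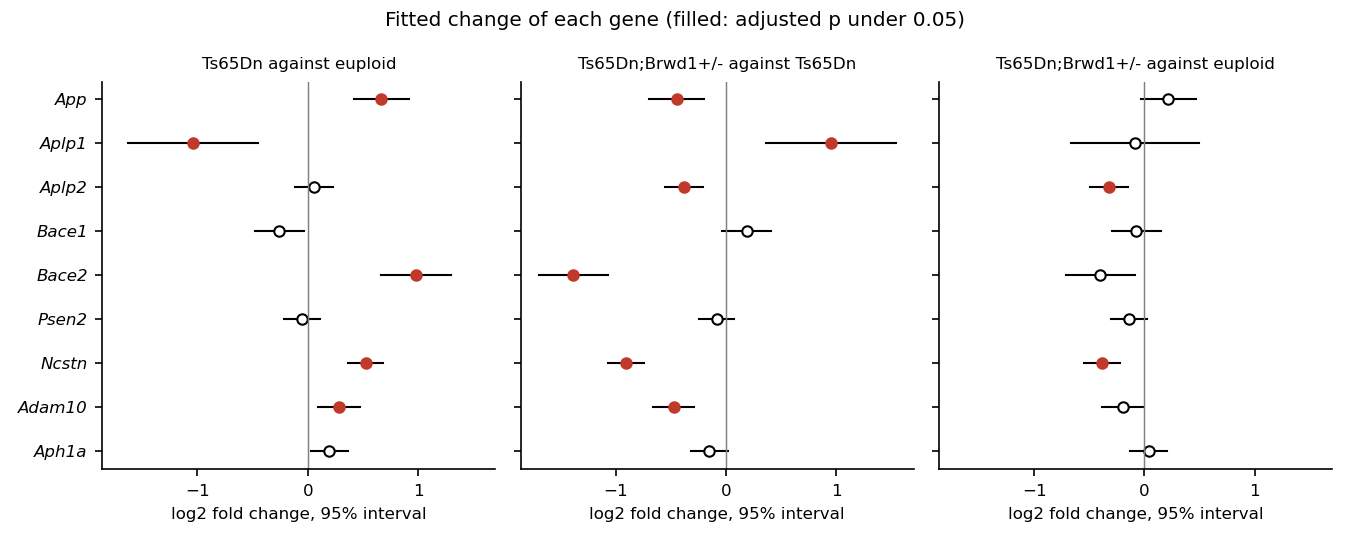
Fitted log2 fold change of each gene (dot) with its 95% interval (line) in the 3 genotype comparisons, filled where the adjusted p was under 0.05. In Ts65Dn against euploid the differences run from -1.04 (Aplp1) to 0.98 (Bace2), and in Ts65Dn;Brwd1+/- against Ts65Dn from -1.38 (Bace2) to 0.95 (Aplp1).

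App and Bace2 were then set beside the other genes of the extra segment, taken as chromosome 16 from 84717576 to 98082450 and chromosome 17 from 3042024 to 8986648, in which 134 genes were tested. In Ts65Dn against euploid the segment median was 0.63 on the log2 scale, and 61 of these genes had a larger difference than App and 34 a larger one than Bace2. In Brwd1 Rescue against Ts65Dn the segment median was -0.01, while App and Bace2 had fallen, with 92 and 121 of the genes at a higher value. Against euploid the segment median in Brwd1 Rescue was 0.55, and 102 and 123 genes stood higher than App and Bace2.

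The nearest tested neighbours of App gave the same picture of unequal change within the segment. In Ts65Dn against euploid all 6 rose, where 25.6% of all tested genes were higher. Jam2, a junction protein gene, rose by 1.09, Atp5j, an ATP synthase subunit gene, by 0.66, and the transcription factor gene Gabpa by 0.82. The secreted protease genes Adamts1 and Adamts5 rose by 0.90 and 1.99, and N6amt1, a methyltransferase gene, by 0.38. In Brwd1 Rescue against Ts65Dn, Jam2 fell by 0.94, Adamts1 fell by 1.23 and Adamts5 fell by 0.86, whereas Atp5j (-0.04), Gabpa (-0.21) and N6amt1 (-0.03) did not pass. Gabpa and Atp5j, which lie closest to the end of App, still stood 0.61 and 0.62 above euploid in Brwd1 Rescue, both past the threshold.

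Around Bace2 the neighbours differed from each other in Ts65Dn against euploid. The neuronal calmodulin-binding gene Pcp4 fell by 0.85 and the glycosyltransferase gene B3galt5 by 0.37, and Dscam, a neuronal adhesion gene, had a difference of -0.64 that did not pass (adjusted p = 0.151). The interferon-induced genes Mx1 and Mx2 rose by 1.68 and 2.06, and the kinase gene Ripk4 rose 2.29-fold at a mean of at most 1.11 CPM. Between the trisomic genotypes, Mx1 and Mx2 fell in Brwd1 Rescue by 3.57 and 3.06, Pcp4, B3galt5 and Dscam rose by 1.53, 0.53 and 1.55, and Ripk4 had 0.13 (adjusted p = 0.727).

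By the likeness of log2 CPM over the 9 libraries, the genes closest to App were Xpnpep1 (Pearson r = 0.985), Lrp8 (0.983), Il17ra (0.982), 4931414P19Rik (0.967) and Ephb2 (0.967). Those closest to Bace2 were Glis3 (0.997), Heg1 (0.996), Pdlim1 (0.995), Cd151 (0.995) and Nek6 (0.995). Of these 10 genes only Heg1 is on chromosome 16, outside the extra segment. These correlations describe 9 libraries that fall into 3 genotypes and share their scaling, and 17173 genes were searched.

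The secretase genes outside the 9 came from a list of 6, all tested. In Ts65Dn against euploid 3 rose, 1 fell and 2 did not pass, beside the 25.6% higher and 21.1% lower of all genes. Adam9 and Adam17, which encode further proteases able to cut APP at the alpha site, rose from 127 to 283 and from 73.1 to 116 mean CPM, by 1.16 ± 0.11 (adjusted p = 4.02e-05) and 0.67 ± 0.09 (adjusted p = 0.000316) on the log2 scale. In Brwd1 Rescue they fell against Ts65Dn by 1.41 and 0.97 (adjusted p = 4.95e-06 and 1.31e-05), to 107 and 59.6 CPM.

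Among the remaining gamma-secretase genes, Psenen, which encodes PEN-2, rose in Ts65Dn by 0.31 ± 0.10 (adjusted p = 0.0265), and Aph1b, the other APH1 scaffold, fell by 0.33 ± 0.10 (adjusted p = 0.0215) and rose in Brwd1 Rescue against Ts65Dn by 0.31 ± 0.10 (adjusted p = 0.0228). Aph1c passed in no comparison. Aph1b and Aph1c are near-identical copies, so reads could be split between them. Between the trisomic genotypes 1 of the 6 rose in Brwd1 Rescue, 2 fell and 3 did not pass, beside 27.6% higher and 30.5% lower of all genes. In Brwd1 Rescue against euploid Adam17 alone of the 6 passed, lower by 0.29 on the log2 scale (adjusted p = 0.0308), beside 29.2% of all genes that passed and 15.2% lower.

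Of 17 genes for APP adaptors and sorting, 16 were tested, and in Ts65Dn against euploid 4 rose and 9 fell, beside 25.6% higher and 21.1% lower of all genes, with a median of -0.34 beside 0.04 over all genes. Sorl1, the sorting receptor that carries APP away from endosomes, rose from 285 to 439.9 mean CPM, by 0.63 (adjusted p = 0.000376). Itm2b and Itm2c, whose products bind APP, rose by 0.80 and 0.78 (adjusted p = 8.46e-05 and 2e-04). All 3 fell in Brwd1 Rescue against Ts65Dn, by 1.04, 1.01 and 1.25, where 7 of the 16 rose and 4 fell, beside 27.6 and 30.5% of all genes. Against euploid none of the 16 rose in Brwd1 Rescue and 4 fell, beside 29.2% of all genes in either direction and 15.2% lower.

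Of 11 genes for degradation and clearance of amyloid-beta, 10 were tested, and in Ts65Dn against euploid 9 rose and 1 fell, beside 25.6% higher and 21.1% lower of all genes, with a median of 0.83 beside 0.04 over all genes. Mme, which encodes neprilysin, rose from 46.8 to 135 mean CPM (1.52, adjusted p = 6.52e-05), Ctsd, the lysosomal protease cathepsin D, from 475 to 1087 (1.19, adjusted p = 1.41e-05), and Clu, the secreted chaperone clusterin, from 2106 to 4188 (0.99, adjusted p = 0.000234). Ece2, an endothelin-converting protease gene, was the one that fell, by 0.78 (adjusted p = 0.00047). It is named here, after its value was seen, as the exception. In Brwd1 Rescue against Ts65Dn 8 of the 10 fell and 2 rose, beside 30.5 and 27.6% of all genes, and Mme fell by 2.38, Clu fell by 1.73 and Ctsd fell by 1.59. Against euploid 1 of the 10 rose, 4 fell and 5 did not pass, beside 29.2% of all genes that passed. These genes are also made by glia and by non-neural cells. Mean marker sums in euploid, Ts65Dn and Brwd1 Rescue were 365, 1059 and 231 CPM for fibroblasts and meninges, 147, 847 and 168 for endothelium and pericytes (64.3, 92.1 and 56.2 without Kdr), and 3469, 3881 and 3939 for astrocytes (2160, 3027 and 2318 without Slc1a3). They were 312, 569 and 978 CPM for the oligodendrocyte lineage (92.0, 117 and 444 without Olig1), 11.3, 6.06 and 1.59 for microglia, and 351, 228 and 57.4 for choroid plexus (91.5, 215 and 51.5 without Ttr). The euploid choroid plexus sums ran from 149.8 to 743 CPM, so that mean rested on 1 library. Among the 8 astrocyte markers, 4 rose in Ts65Dn against euploid, and Slc1a2 and Slc1a3 fell. Of 4 tested markers of endothelium and pericytes 2 rose and none fell, and of 7 oligodendrocyte lineage markers 3 rose and none fell. For microglia 2 of 6 tested markers fell and none rose, and for choroid plexus 2 of 5 tested rose and 2 fell. The part of cell composition in the changes of the degradation and clearance genes was not tested.

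Of 14 other secretase substrates, all tested, 3 rose and 7 fell in Ts65Dn against euploid, beside 25.6% higher and 21.1% lower of all genes. In the trisomic comparison 7 rose and 4 fell in Brwd1 Rescue, beside 27.6 and 30.5%, and against euploid 5 rose and 3 fell, beside 29.2% of all genes in either direction. Sez6, a neuronal BACE1 substrate, had 396, 241 and 689 mean CPM in euploid, Ts65Dn and Brwd1 Rescue, with log2 differences of -0.72 (adjusted p = 0.000342) and 1.52 (adjusted p = 1.75e-06). The netrin receptor gene Dcc had 15.4, 6.33 and 29.3 mean CPM, with -1.29 (adjusted p = 0.00213) and 2.21 (adjusted p = 3.53e-05). Nrg1, the neuregulin that BACE1 cleaves, had -0.18 in Ts65Dn (adjusted p = 0.313) and fell in Brwd1 Rescue by 0.87 against Ts65Dn (adjusted p = 0.00061) and by 1.05 against euploid (adjusted p = 0.000548).

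In adult hippocampus there was 1 pooled peak list per genotype and assay, so that peaks carry no replicate error, and the lists differed greatly in length. The SMARCA2/4 lists held 22667 peaks in euploid, 1290 in Ts65Dn and 1873 in Brwd1 Rescue, and named 38.6, 4.14 and 4.89% of the tested genes. Of the 9 genes, 7 had a SMARCA2/4 peak in the euploid list (all but Bace2 and Ncstn), 1 in Ts65Dn (App) and 1 in Brwd1 Rescue (Bace1). Their 21, 2 and 1 peaks had no base in common between genotypes. Over all peaks, 2.67% of the euploid ones met a Ts65Dn peak and 3.82% a Brwd1 Rescue peak, while 48.1% of the Ts65Dn peaks and 45.9% of the Brwd1 Rescue peaks met a euploid one, and 22.5% of the Ts65Dn peaks met one of Brwd1 Rescue. At a q-value under 0.05, which 19897 of the 22667 euploid peaks met, 5 of the 7 in euploid remained (App, Aplp2, Psen2, Adam10 and Aph1a). The share of all tested genes at that q-value was not counted.

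App carried 10 of the 21 euploid SMARCA2/4 peaks, where 232 of 17173 tested genes had as many or more and the median of genes with a peak was 2. These numbers were not adjusted for gene length, and 8 of the 10 had a q-value under 0.05. Of the 10, 6 were centred between positions -302 and 1636 relative to the start of App, with fold enrichments from 3.23 to 4.97 over local background. The strongest was chr16:85172390-85172770 in an intron (fold enrichment 4.97, q = 1.41e-05), and chr16:85173411-85173634 covered 133 bases of exon (fold enrichment 4.54, q = 4.02e-05). The other 4 lay in introns 45437 to 204383 bases downstream. The App promoter window printed above was covered by none of the SMARCA2/4 peaks, while the Aplp2 window was covered over 17 bases.

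The 3 SMARCA2/4 peaks below, 1 from each genotype's list, are shown as examples that met an ATAC peak of a trisomic list and none of the euploid one. All are intronic, given in mm10 on the strand of the gene with CpG dinucleotides in capitals.
App, euploid SMARCA2/4 peak, chr16:85110585-85110670: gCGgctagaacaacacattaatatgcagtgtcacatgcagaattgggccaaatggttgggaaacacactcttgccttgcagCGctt
App, Ts65Dn SMARCA2/4 peak, chr16:85002100-85002147: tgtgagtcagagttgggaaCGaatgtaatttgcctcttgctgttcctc
Bace1, Brwd1 Rescue SMARCA2/4 peak, chr9:45849668-45849775: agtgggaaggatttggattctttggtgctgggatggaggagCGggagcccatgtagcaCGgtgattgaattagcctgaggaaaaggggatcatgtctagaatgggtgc

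The first of these, 86 bases long with 2 CpG, had a fold enrichment of 2.95 (q = 0.0224) in the euploid SMARCA2/4 list and lay under ATAC peaks of both trisomic lists. The Ts65Dn SMARCA2/4 peak of App, 48 bases with 1 CpG, had a fold enrichment of 4.21 (q = 0.00901) and lay under ATAC peaks of Ts65Dn (chr16:85001942-85002639, fold enrichment 4.22) and Brwd1 Rescue (chr16:85001858-85002655, fold enrichment 2.93). The other Ts65Dn peak of App had a q-value of 1. The Bace1 peak of Brwd1 Rescue had a fold enrichment of 3.88 (q = 0.0126) and shared 15 of its 108 bases with the ATAC peak chr9:45849475-45849682 of the same genotype.

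Open chromatin at the 9 genes was listed in more places in the trisomic genotypes, and so was open chromatin in general. The ATAC lists held 15521, 29195 and 30244 peaks in euploid, Ts65Dn and Brwd1 Rescue and named 53.3, 66.0 and 65.6% of the tested genes. Of the 9, 7 had a peak in euploid, 8 in Ts65Dn, where Bace1 was added, and 9 in Brwd1 Rescue, where Bace2 was added. The 8 euploid peaks of these genes were all met by a peak in each trisomic list, and 17 of the 19 Ts65Dn peaks (89.5%) and 17 of the 20 Brwd1 Rescue peaks (85%) overlapped each other. Over all ATAC peaks, 96.7 and 96.2% of the euploid ones were met in Ts65Dn and Brwd1 Rescue, and 81.0% of the Ts65Dn and 78.2% of the Brwd1 Rescue peaks overlapped each other. In the other direction, 49.9% of all Ts65Dn and 47.9% of all Brwd1 Rescue peaks met a euploid one, beside 42.1 and 40% for these genes.

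App had 2 ATAC peaks in euploid, 8 in Ts65Dn and 7 in Brwd1 Rescue, and 1935, 174 and 297 tested genes had as many or more in those lists, again without adjustment for gene length. Its promoter peak was present in all 3, with fold enrichments of 4.58, 4.43 and 3.64, and covered 240, 238 and 250 of the 250 bases of the promoter window. The map of App peaks shows that 5 intronic ATAC sites, from 63110 to 218140 bases downstream of the start, were in both trisomic lists and absent from the euploid one. App lies in the extra segment, so gene copies and genotype cannot be told apart at these sites. The part of copy number in the App peaks was not tested.

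**Figure D5:**
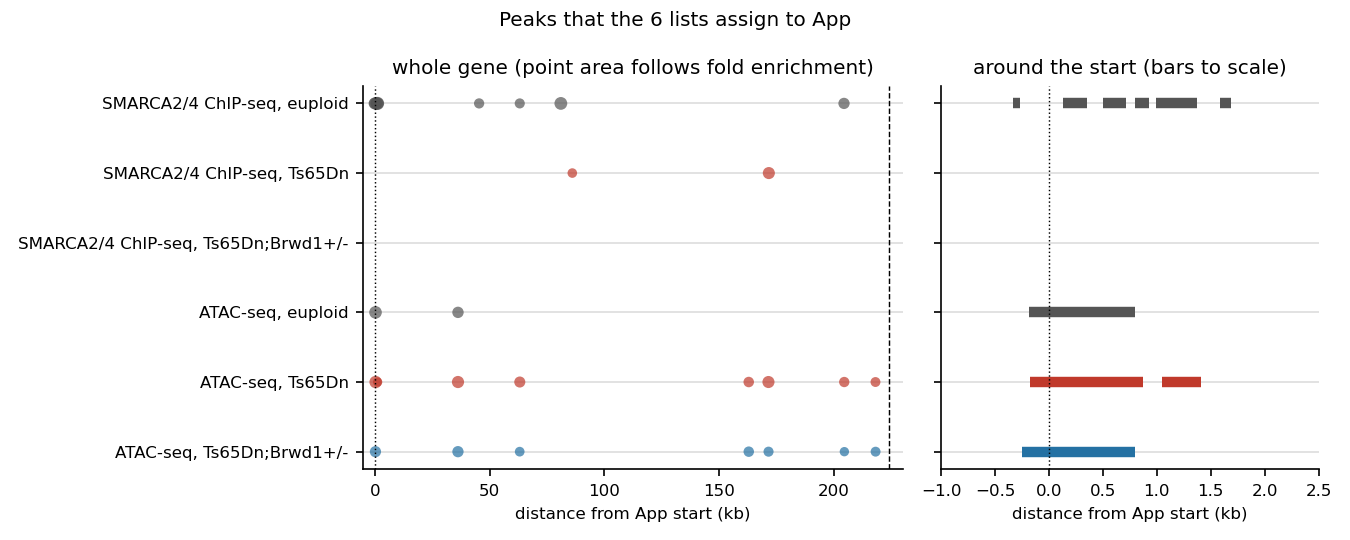
Peaks that each of the 6 pooled lists assigned to App, by distance of the peak centre from the gene start in kb (left, the whole gene with its end dashed, point area following fold enrichment) and around the start with peak lengths to scale (right). The euploid SMARCA2/4 list has 10 peaks, 6 of them near the start, against 2 and 0 in the trisomic lists, while the ATAC lists have 2, 8 and 7.

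The promoters of Aplp2, Adam10, Aph1a and Ncstn had an ATAC peak in all 3 lists. The fold enrichments were 7.43, 7.48 and 7.40 at Aplp2 in euploid, Ts65Dn and Brwd1 Rescue, 6.81, 9.19 and 7.67 at Adam10, 6.97, 7.50 and 6.14 at Aph1a, and 5.88, 7.58 and 6.38 at Ncstn. Ncstn and Aplp2, the 2 genes whose RNA passed as lower in Brwd1 Rescue than in euploid cultures, thus kept a promoter peak in every list of adult neuronal nuclei. The mean RNA of Adam10, Bace2 and Psen2 was also lowest in Brwd1 Rescue, without passing against euploid in the main fit. The depth behind the lists is unknown, and the tissue and age differ from those of the cultures.

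Aplp1 had 1 ATAC peak in euploid, centred 788 bases inside the gene with a fold enrichment of 2.74, and in both trisomic lists a second one at the start itself, with fold enrichments of 5.04 in Ts65Dn and 3.13 in Brwd1 Rescue, which covered 158 and 121 bases of the window printed above. Bace1 had no euploid peak and promoter peaks of 4.80 and 3.56 in the trisomic lists. Bace2 had peaks in Brwd1 Rescue only, at fold enrichments of 2.75 and 3.22, although its RNA in culture was highest in Ts65Dn. Psen2 had 1 peak shared by all 3 lists, with 5.25, 6.40 and 4.73, centred 7113 to 7232 bases inside the annotated start, at the promoter of a shorter transcript, and a further one in Ts65Dn alone (3.30), centred 13160 bases inside.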

How the data were processed

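The authors aligned RNA reads to mm10 and deposited 1 file of unnormalised read counts per gene and library. The submitters' processing notes name HISAT2, featureCounts and DESeq2, whereas the last 5 lines of each file are of the kind htseq-count writes. Those lines held 37.4 to 40.0% of the counts and were left out. Gene lines summed to 17270070 to 25892802 per library. The authors deposited 1 pooled MACS peak list per genotype and assay, in which each peak has a fold enrichment (a linear ratio to local background) and a q-value. The stated filter (q under 0.05) does not describe the ChIP-seq lists, where 19897 of 22667, 410 of 1290 and 1090 of 1873 peaks met it. Each of these lists names a gene for its peaks, and those names were used. Starts and ends are given as in the files, whose shortest ATAC peak spans 200 bases when both ends are counted.

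Groups came from the labels. Genes kept by filterByExpr (17173) were fitted over all 9 RNA libraries with genotype as the only factor in edgeR 4.0.16 (R 4.3.3), with TMM scaling, the quasi-likelihood F-test and Benjamini-Hochberg adjustment over all genes at a threshold of 0.05. The test was run on simulated data first. Log2 CPM used a prior count of 2. Ratios were compared with exact permutation tests in R, and in scipy 1.17.1 where 1 library was left out. Peaks were called shared at 1 base of overlap. The titles number the replicates. Deviations from the genotype means correlated between same-numbered euploid and Ts65Dn libraries (r = 0.13, 0.21 and 0.26), so a fit with the replicate number as a block is given beside that comparison where it changes a call, whereas pairs with the Brwd1 Rescue libraries gave r from -0.16 to 0.28. Alternatives used DESeq2 1.42.0, its size factors, a RUVr factor, other filters, a replicate block and fits without each library. The genes named outside the 9 were the other secretase genes (1 of these and 1 peak sequence are not reported here), at most 3 per further list by the smallest p over the 3 genotypes (and Ece2, named after its value was seen), 3 tested neighbours on each side of App and Bace2, and the 5 genes most like each. The members and lists were chosen with earlier results of these data known.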

Additional observations from a re-analysis of the deposited data

How the results depend on the processing

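Over 17 alternatives, 426 of 459 values of the 9 genes kept their direction and their side of the threshold, 8 lost their call, 22 gained one and 3 changed sign, all 3 with differences that passed in no analysis. These were Aplp2 in Ts65Dn against euploid (-0.00108 without euploid replicate 3, up to 0.0682 without Ts65Dn replicate 3) and Aph1a in Brwd1 Rescue against euploid (-0.0128 without euploid replicate 1 and -0.00591 without Brwd1 Rescue replicate 3, up to 0.0617 without euploid replicate 2). The calls of App, Aplp1, Bace2 and Ncstn in both comparisons with Ts65Dn, and of Aplp2 and Adam10 between the trisomic genotypes, were kept in all 17. The call lost 8 times was that of Adam10 in Ts65Dn against euploid (adjusted p up to 0.11). In the same comparison Bace1 passed in 8 alternatives and Aph1a in 3, and Bace2 passed in 9 in Brwd1 Rescue against euploid. The numbers of genes that passed stayed between 4 and 7, 6 and 7, and 2 and 3 in the 3 comparisons, and between 4 and 6, 6 and 6, and 2 and 3 when 1 library was left out. With a replicate block 7, 6 and 3 passed. It added Bace1 and Aph1a in Ts65Dn against euploid, where same-numbered libraries deviated together (r from 0.13 to 0.26), and Bace2 in Brwd1 Rescue against euploid, where the r values were not all above 0.1, and changed no other call. Of 18 comparisons of a library with another genotype, 12 were best with the same number. The log2 ratios ranged from 1.46 to 2.04, from -1.73 to -1.14 and from 0.27 to 0.40 for App to Aplp1 when 1 library was left out, where an exact permutation test cannot go below 0.2. The causes of these shifts were not tested. The lowest count of the 9 genes was 507, and the part of depth in the calls was not tested. The pooled peak lists allow no error.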
